A study of Homo sapiens with 2 samples.

Results

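The genes described are those of the NF-kappaB pathway, 35 genes chosen by symbol that encode the transcription factor subunits, the kinases that activate them, the inhibitors that restrain them and a panel of target genes. Of these, 33 had at least 1 named probe, 45 probes in all, among 18852 genes and 48803 probes on the array, and TRAF2 and BIRC3 had none. Both samples were cultures of the human colorectal cancer line SW48. One culture had been exposed for 6 days to 20 µM of acetyl-11-keto-β-boswellic acid, called AKBA, which is a triterpenoid from the resin of Boswellia trees. The control is given as dimethyl sulfoxide vehicle at 0.1% by the treatment protocol and as untreated by the source name, so an effect of the vehicle cannot be told apart from that of AKBA. Each group was 1 Illumina bead array. There is therefore no spread between cultures, no gene was tested, and higher and lower describe these 2 arrays.

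NF-kappaB is a family of dimeric transcription factors that inhibitory IkappaB proteins hold in the cytoplasm. Receptors for tumour necrosis factor, interleukin-1 and microbial products activate the IkappaB kinase (IKK) complex, which marks IkappaB for destruction and frees the dimers to enter the nucleus. There they switch on cytokine, chemokine and survival genes together with their own inhibitors, so the level of the inhibitor genes is a customary readout of the pathway. Much of its activation takes place on proteins, which an array of messenger RNA does not measure.

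The median bead signals were 80.9 (control) and 78.3 (AKBA). Detection was called where the detection p, the deposited rank of a signal among the negative control beads of its array, was below 0.01. The lowest detected signals were 138 and 141. Of all genes with a probe, 8639 (45.8%) were detected on at least 1 array, 661 of them on the control array alone and 48 on the AKBA array alone. Epithelial markers were detected for 7 of 12 genes, among them EPCAM and CDH1, while KRT20, CDX1, VIL1, LGALS4 and CDH17 were not detected. Leukocyte markers were detected for 2 of 11 genes with a probe, CD68 and LYZ, with log2 differences of 0.77 and 0.38 (AKBA minus control), and PTPRC, which defines leukocytes, was not detected. The summed deposited signal of the leukocyte list, most of it from probes at background, was 1314 in control and 1493 with AKBA, and CD68 had 472 and 610 of these. That of the epithelial list was 16225 and 15171. These sums are of unscaled signals, and the AKBA array was the dimmer one. After normalization the 7 detected epithelial markers had a median difference of 0.26, with 6 above the median of all detected genes and 1 below. The part of these markers in the differences below was not tested. Fibroblast and endothelial markers were detected for 0 of 12 genes, with sums of 934 and 924.

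Genes of the subunits, the kinases and the inhibitors were detected in SW48 cells, and the 10 cytokine targets were detected on neither array. The subunits were detected for 3 of 5 genes, the kinases and adaptors for 4 of 4 with a probe, the feedback inhibitors for 6 of 6, the cytokine targets for 0 of 10 and the other targets for 5 of 8 with a probe. Of the 18 detected genes, 15 were detected on both arrays and 3, TNFAIP3, PLAU and TNFAIP2, on the control array alone. Between the arrays, 0 of the 18 were higher with AKBA by 1.5-fold or more, against 2.91% of all detected genes, and 1 was lower, TNFAIP2, against 4.36%. Among the 15 detected on both arrays, 0 lay past 1.5-fold in either direction, where 2.69% of all such genes were higher and 2.81% lower. At 2-fold, 0 of the 18 were past it in either direction, against 0.405% of all detected genes higher and 0.347% lower. The log2 differences of these 15 ran from -0.50 to 0.49, and their median was 0.01, beside -0.01 over all 7930 genes detected on both arrays. Over all 33 genes with a probe, detected or not, the median was -0.05, beside -0.01 over all genes. In a bulk sample, less RNA per cell and fewer cells that express a gene cannot be told apart.

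**Figure D1:**
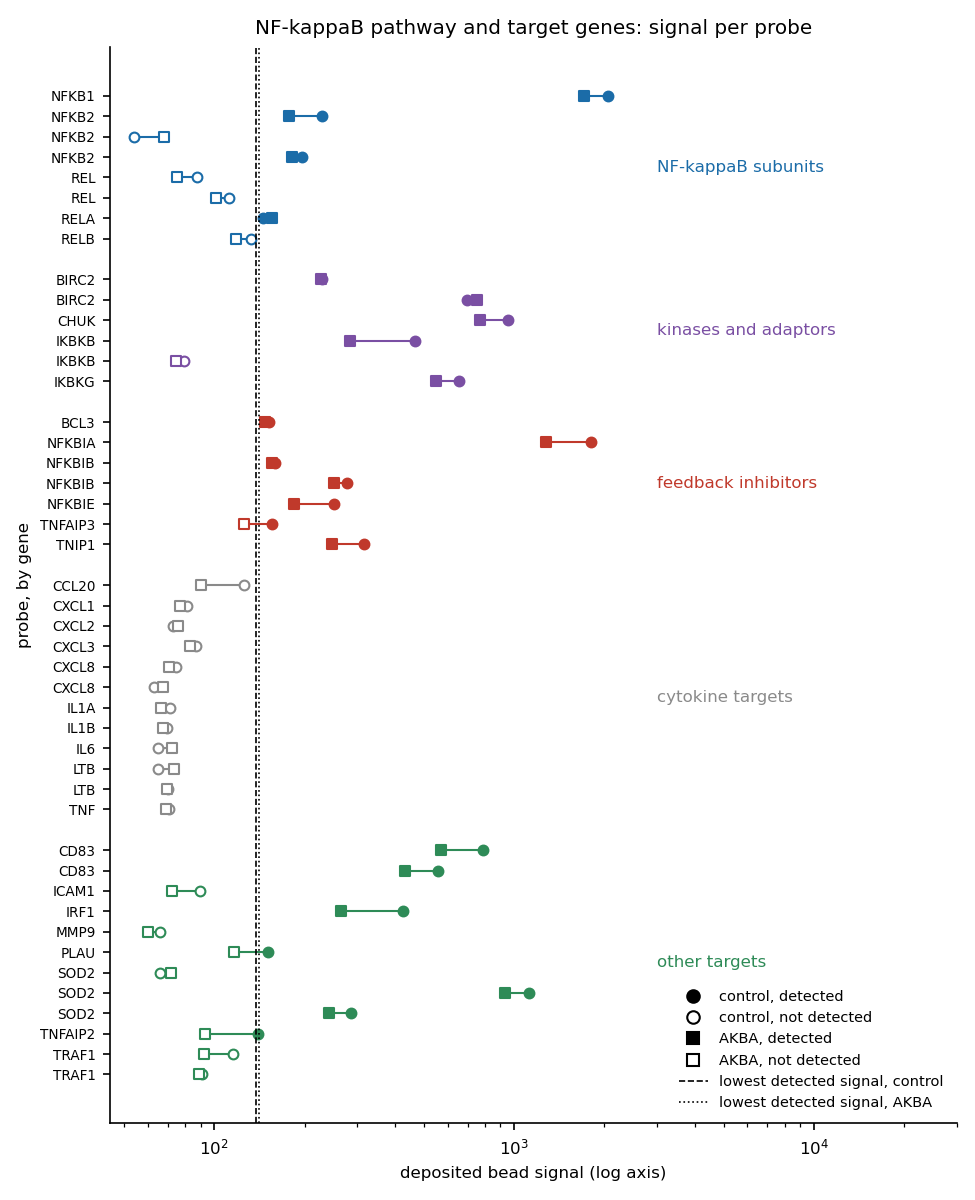
Deposited bead signal (log axis) of each of the 45 probes on the control array (circles) and the AKBA array (squares), by role. Filled symbols were detected, and the vertical lines mark the lowest detected signals, 138 in control and 141 with AKBA. The 12 cytokine probes are all open.

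Signals are given as deposited, before the arrays were scaled, and differences and folds after normalization, on the log2 scale. The AKBA array was the dimmer one, so a gene with a lower signal there could have a normalized difference near 0. NFKB1, which encodes the p105 precursor of the p50 subunit, had signals of 2058 in control and 1708 with AKBA, and its difference after normalization was 0.06. Both signals were far above the detection limit, and the difference lay near the middle of those of all genes.

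RELA, the gene of the p65 subunit that carries the transactivation domain of the main p50-p65 dimer, had signals of 145 and 155. These are close to the limits of 138 and 141, and the difference after normalization was 0.49, the highest of all members. It lay at the 95.3rd percentile of the differences of genes detected on both arrays, so about 1 gene in 20 stood as high. The spread was wider among dim genes. The 5th to 95th percentile was -0.53 to 0.54 below a mean log2 signal of 9.04, and -0.41 to 0.39 from there up. RELA is among the dim genes and lay inside their range. RELA had 1 probe, and no other probe checks it. NFKB2, the gene of the p100 precursor of p52 in the alternative pathway, was detected by 2 of its 3 probes, which did not share a direction. The brighter had signals of 229 and 177 and a difference of -0.17, and the other had 196 and 181 and a difference of 0.18. RELB, the usual partner of p52, had signals of 132 and 118 with a detection p of 0.0119 and 0.0132, just outside the limit. REL, the gene of c-Rel, had 112 and 101 by the brighter of its probes, with a detection p of 0.0224 and 0.0303. Neither RELB nor REL was detected, and no fold is given for them.

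NFKB2 and IRF1 are shown here by the 250 bases before a gene start because these windows hold matches to the kappaB consensus. RELA and BIRC2 are shown because their differences were the highest. The set drawn held the members with a window, detected on both arrays, with the largest absolute differences. It also included BCL3 and NFKBIB, which are not shown. Members with a match lay on both sides. Among those detected on both arrays, NFKB1 and NFKBIB hold the consensus in a window and had differences above 0. NFKB2 by its brighter probe, NFKBIA, TNIP1, CD83 and IRF1 hold it too and lay below 0. Without a match, RELA, BIRC2, BCL3, IKBKG, SOD2 and CHUK were detected on both arrays and lay above 0. IKBKB and NFKBIE, also detected on both arrays, lay at -0.50 and -0.27. They had no window to search, so they stand in neither group. TNFAIP2 and PLAU hold no match, TNFAIP3 holds the consensus, and all of them lay below 0. They were detected on the control array alone, so their direction is not known. Many of these differences were small, and a link of match to direction was not tested. Sequences are from RefSeq, GRCh38.p14, on the strand of the gene, 5′ to 3′. Capitals mark matches, on either strand, to a looser kappaB-like pattern of 3 G, 5 bases of any kind and 2 C, with overlapping matches run together; where RefSeq gives a gene several windows, the one with the most matches is shown.
NFKB2, chr10:102394328-102394577, plus strand: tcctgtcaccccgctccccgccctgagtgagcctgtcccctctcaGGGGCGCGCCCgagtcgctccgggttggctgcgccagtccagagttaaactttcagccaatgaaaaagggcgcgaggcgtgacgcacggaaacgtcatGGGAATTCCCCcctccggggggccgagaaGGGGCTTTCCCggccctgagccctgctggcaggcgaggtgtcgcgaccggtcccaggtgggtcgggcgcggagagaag
IRF1, chr5:132490774-132491023, minus strand: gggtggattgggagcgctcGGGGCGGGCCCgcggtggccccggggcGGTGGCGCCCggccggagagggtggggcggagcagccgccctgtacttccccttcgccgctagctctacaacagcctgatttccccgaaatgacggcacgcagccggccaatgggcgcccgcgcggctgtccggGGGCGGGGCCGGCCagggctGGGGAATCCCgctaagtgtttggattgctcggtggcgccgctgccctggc
RELA, chr11:65662917-65663166, minus strand: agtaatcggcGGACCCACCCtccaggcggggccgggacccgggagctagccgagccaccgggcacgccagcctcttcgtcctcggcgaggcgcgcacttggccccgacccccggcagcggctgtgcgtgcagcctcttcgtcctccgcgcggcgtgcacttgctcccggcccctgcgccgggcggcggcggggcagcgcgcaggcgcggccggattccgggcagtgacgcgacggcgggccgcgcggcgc
BIRC2, chr11:102346964-102347213, plus strand: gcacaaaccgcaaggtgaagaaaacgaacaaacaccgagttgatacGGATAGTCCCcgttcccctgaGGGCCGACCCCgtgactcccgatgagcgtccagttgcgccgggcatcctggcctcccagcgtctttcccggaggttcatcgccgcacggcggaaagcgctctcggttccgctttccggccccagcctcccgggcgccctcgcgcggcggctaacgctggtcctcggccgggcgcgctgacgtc
The NFKB2 window holds the runs GGGAATTCCCC, which begins 107 bases before the start, and GGGGCTTTCCC, 78 bases before it. The IRF1 window holds GGGGAATCCC, 50 bases before the start. The textbook kappaB consensus, which in addition asks for a purine after the run of G and a pair of pyrimidines before the last C pair, was matched in the NFKB2 and IRF1 windows shown but not in those of RELA and BIRC2. Over all 35116 windows of the same length, 54.4% held the looser pattern and 9.96% the kappaB consensus, on either strand. By gene, with any of its windows, these shares were 57.8% and 11.8% over 27305 genes, and 29 and 16 of the 31 members with a window. The kappaB consensus was matched in 8 of the 16 detected members with a window and in 8 of the 15 undetected ones or ones without a probe. A match describes letters in the window and not a bound site.

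Among the IKK genes, the catalytic subunits did not lie together. IKBKB, the gene of IKK-beta, the kinase of the canonical pathway, had signals of 468 and 284 by its detected probe, and its difference of -0.50 was the lowest of the members detected on both arrays. This is 1.41-fold higher in the control, at the 4.41st percentile of genes detected on both arrays. IKBKB is among the genes with a mean log2 signal below 9.04, and it lay inside their 5th to 95th percentile of -0.53 to 0.54. Its other probe was at background, with signals of 79.1 and 74.4, and adds no check. CHUK, the gene of IKK-alpha, the kinase of the alternative pathway, had signals of 952 and 769 and a difference of 0.01. IKBKG, the gene of the regulatory subunit NEMO, had 654 and 547 and a difference of 0.07; it has a near-identical pseudogene copy, which an array probe may not separate from it. With the probes as given, IKBKB alone of these 3 genes lay away from the middle, and the difference between them was not tested.

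BIRC2, the gene of the ubiquitin ligase cIAP1, which adds ubiquitin chains at the tumour necrosis factor receptor and holds the alternative pathway in check, was measured by 2 detected probes that shared a direction. One had signals of 695 and 750 and a difference of 0.48, which is 1.39-fold higher with AKBA. The other had 229 and 226 and a difference of 0.33. The differences lay at the 95th and 89.1st percentile of genes detected on both arrays. The brighter probe has a mean log2 signal of 9.38. Its 0.48 lay outside the 5th to 95th percentile of genes from 9.04 up, -0.41 to 0.39. The other probe is dim, and its 0.33 lay inside the -0.53 to 0.54 of dim genes. BIRC2 and RELA were the members with a higher deposited signal on the dimmer AKBA array by the probe that represents the gene among those detected.

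The group of inhibitors holds the IkappaB genes and the A20 axis. NFKBIA and TNFAIP3 are induced by NF-kappaB and feed back on it, while NFKBIB is not a typical induced gene. Their differences were small and of both signs, 2 of 5 above and 3 of 5 below the median among those detected on both arrays, with a median of -0.10. NFKBIA, the gene of IkappaB-alpha and the usual early reporter of the pathway, had signals of 1798 and 1277 and a difference of -0.17, which is 1.12-fold higher in the control. NFKBIE, the gene of IkappaB-epsilon, had 252 and 184 and a difference of -0.27. NFKBIB, the gene of IkappaB-beta, had 277 and 250 by one probe and 159 and 155 by the other, with differences of 0.17 and 0.29, so NFKBIB lay on the other side from NFKBIA and NFKBIE by both probes. BCL3, an atypical nuclear IkappaB that can act as a coactivator with p50 and p52 dimers, had 152 and 148 and a difference of 0.27, with both signals close to the limit. All these differences lay inside the 5th to 95th percentile of genes detected on both arrays, which was -0.48 to 0.48.

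TNFAIP3, the gene of A20, a ubiquitin-editing enzyme that shuts off signalling to IKK, was detected on the control array alone, with signals of 156 and 125 and a detection p of 0.0066 and 0.0119. The normalized difference was -0.22. The lowest normalized value that passed detection with AKBA is above the control value of TNFAIP3, so no bound can be given. TNIP1, whose product binds A20 and helps it act, had signals of 316 and 246 on the arrays and a difference of -0.10.

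**Figure D2:**
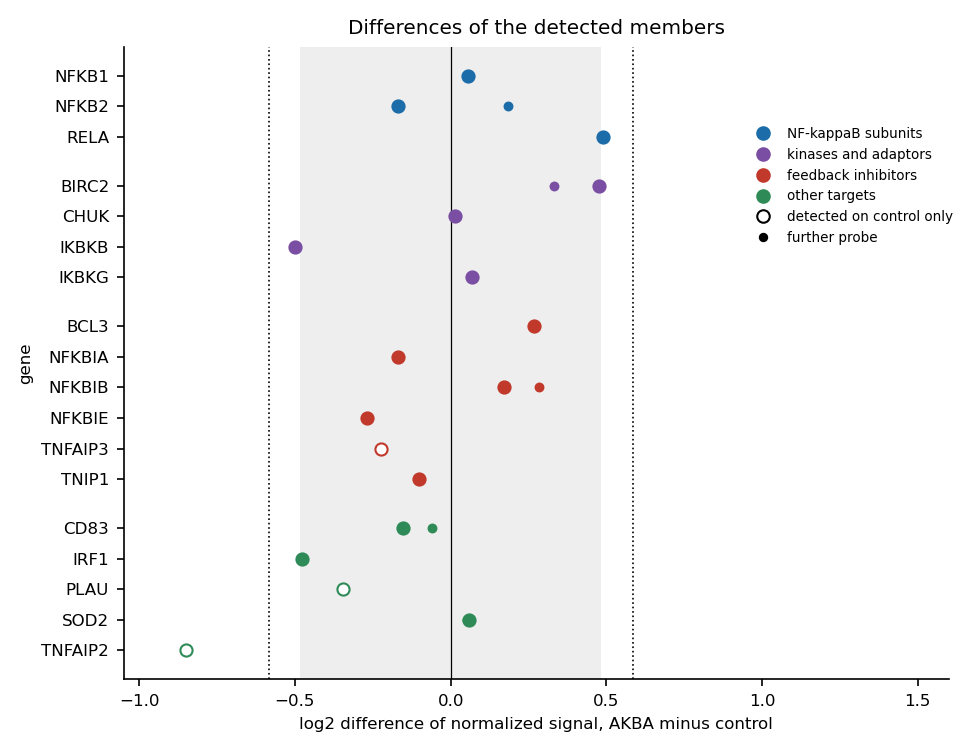
Log2 difference of the normalized signal, AKBA minus control, for each detected member, by role. Large points are the probe that represents the gene, small points its other detected probes, open points genes detected on the control array alone; the grey band is the 5th to 95th percentile of all genes detected on both arrays (-0.48 to 0.48) and the dotted lines are 1.5-fold. TNFAIP2, an open point at -0.85, lies beyond the lines.

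The 10 cytokine and chemokine genes among the members were not detected on either array. These were the neutrophil chemokines CXCL8, CXCL1, CXCL2 and CXCL3, the CCR6 ligand CCL20, the inflammatory cytokines IL6, IL1A, IL1B and TNF, and LTB, the gene of lymphotoxin beta. Leaving out CCL20, their 11 probes had signals of 63.2 to 86.8 in control and 66.5 to 83.1 with AKBA. The lowest detection p among them was 0.133 in control and 0.123 with AKBA, both those of CXCL3. Signals of this size do not show that the genes were silent, and no direction can be read from them. CXCL8, for example, had 74.8 and 70.7 by one probe and 63.2 and 67.4 by the other, so that its probes lay on opposite sides.

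CCL20, a chemokine that intestinal epithelium makes, was the cytokine gene nearest to the limit. It had signals of 126 and 90.0, with a detection p of 0.0132 in control and 0.0632 with AKBA. Its normalized difference was -0.68, but it was detected on neither array at the limit used, and the fold is not given as a result. At a detection limit of 0.05 it was detected on the control array and counted as lower by 1.5-fold or more.

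Among the other targets, IRF1, a transcription factor that NF-kappaB and interferon both induce, had signals of 424 and 264. Both were well above the limit, and the difference of -0.48, 1.39-fold higher in the control, lay at the 5.06th percentile of genes detected on both arrays. IRF1 too has a mean log2 signal below 9.04, and it lay inside the -0.53 to 0.54 of such genes. CD83, a surface protein of activated immune and epithelial cells, was measured by 2 probes with signals of 785 and 570 and of 559 and 433. Their differences were -0.15 and -0.06. SOD2, the mitochondrial superoxide dismutase that tumour necrosis factor induces, had 1124 and 936 by its brightest probe and 285 and 242 by another, with differences of 0.06 and 0.05. SOD2 and CD83 each had detected probes that agreed to within 0.1 on the log2 scale, and neither gene was near 1.5-fold.

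TNFAIP2, a tumour necrosis factor-induced gene whose product shapes membrane protrusions, had signals of 140 and 93.3 with a detection p of 0.0092 and 0.0474. Its fitted difference of -0.85 made it the 1 member counted past 1.5-fold. However, the AKBA value did not pass the detection limit of 0.01, and the size is not known. The control signal lay just inside the detection limit and the AKBA signal outside it, so the gene entered the count through the array where it was high. As for TNFAIP3, no bound can be given, and with an offset of 50 or without background correction it was -0.53 and -0.45, inside 1.5-fold. PLAU, the gene of urokinase, was detected on the control array alone too, with signals of 151 and 117, a detection p of 0.0079 and 0.0132 and a difference of -0.35. ICAM1, an adhesion molecule for leukocytes, MMP9, a gelatinase, and TRAF1, an adaptor of tumour necrosis factor receptors, were detected on neither array. TRAF1 came nearest, with 115 and 92.4 and a detection p of 0.0171 and 0.0514, while ICAM1 had 89.5 and 72.5 and MMP9 65.9 and 60.2.

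The 3 members detected on 1 array were all detected on the control array, as were 661 of the 709 such genes of the whole array. They were 3 of the 18 detected members, beside 7.65% of all detected genes, and this difference was not tested.

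**Figure D3:**
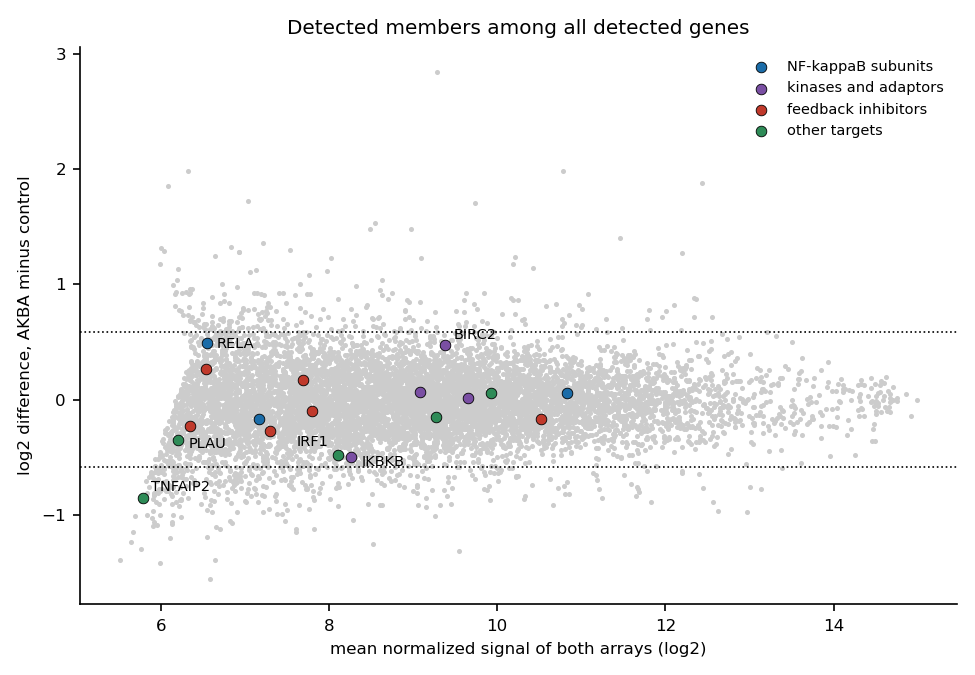
Log2 difference, AKBA minus control, against the mean normalized signal (log2) for each of the 8639 detected genes (grey) and the 18 detected members (coloured by role). The dotted lines are 1.5-fold; members lie within the cloud, and TNFAIP2, detected on the control array alone, lies at its dim edge.

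The other genes of the pathway, a list of 98 made up of receptors, adaptors, upstream kinases, ubiquitin enzymes, further inhibitors and further targets, had a probe for 94 and were detected for 50, of which 45 were detected on both arrays. Among the 50, 1 was higher by 1.5-fold or more and 4 were lower, beside 2.91% and 4.36% of all detected genes. Among the 45, 1 was higher and 1 lower, beside 2.69% and 2.81%. The median difference of the 45 was -0.07, with 18 above and 27 below the median of all such genes. The further targets gave 14 detected genes, 0 of them past 1.5-fold, and 25 that were not detected. The detected ones included secreted factors, which are named after their values were seen: the cytokine IL18 had signals of 5075 and 3474 and a difference of -0.25, the chemokine CXCL16 had 3934 and 3036 and -0.07, and the cytokine IL32 had 1771 and 1392 and -0.01. Among those not detected were the chemokines CXCL10, CCL2 and CCL5, the prostaglandin synthase PTGS2 and the adhesion molecules VCAM1 and SELE. Receptors were detected for 3 of 14, the tumour necrosis factor receptor TNFRSF1A, the lymphotoxin receptor LTBR and the peptidoglycan sensor NOD1. The Toll-like receptors TLR2, TLR3, TLR4, TLR5 and TLR9 and the interleukin-1 receptor IL1R1 were not detected.

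TBK1, a kinase related to IKK that signals to interferon genes, was the lowest of the further genes detected on both arrays. It had signals of 1344 and 711 and a difference of -0.63, 1.54-fold higher in the control. TRAF3, an adaptor that restrains the alternative pathway and works with TBK1, had 303 and 193 and a difference of -0.50, and MYD88, the adaptor of Toll-like and interleukin-1 receptors, had 404 and 255 and -0.45. The targets among the 6 lowest were SDC4, a heparan sulfate proteoglycan, with signals of 489 and 301 and a difference of -0.47, ZC3H12A, an RNase that degrades cytokine messages, with 227 and 155 and -0.45, and PSMB9, an immunoproteasome subunit, with 217 and 153 and -0.39. All 6 had a lower deposited signal on the AKBA array, which adds no check because that array was the dimmer one. The signals of ZC3H12A and PSMB9 on the AKBA array were close to the limit.

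At the other end were 2 of the 3 subunits of the linear ubiquitin chain assembly complex, which builds the chains that recruit IKK. SHARPIN had signals of 155 and 173 and a difference of 0.59, 1.5-fold higher with AKBA, close to the limit on both arrays. With an offset of 50 or without background correction its difference was 0.45 and 0.38, inside 1.5-fold. With loess and with the authors' values it stayed at 0.59. RBCK1, the gene of HOIL-1, had 434 and 491 and a difference of 0.56, 1.47-fold higher. RNF31, the gene of the catalytic subunit HOIP, which is named here after its value was seen, had 378 and 292 and a difference of -0.09. RIPK2, the kinase downstream of NOD1, had 782 and 852 and a difference of 0.48, and TNFRSF1A had 973 and 965 and 0.33. TANK, a scaffold of TBK1, had 294 and 277 and 0.25. GADD45B, a stress and NF-kappaB target, had 536 and 495 and 0.23.

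Of the genes detected on 1 array, NKIRAS2, a Ras-like protein that binds IkappaB, had signals of 213 and 132 and stood at least 1.47-fold higher in control. IKBIP, named for its link to IKK, had 175 and 98.4 and stood at least 1.12-fold higher in control. For these bounds the AKBA side was put at the lowest normalized value that passed detection there. BTRC, the ubiquitin ligase subunit that recognises phosphorylated IkappaB and is named after its value was seen, had 146 and 104 and a difference of -0.62, and no bound can be given. IKBIP, NKIRAS2, BTRC and TBK1 were the 4 further genes counted as lower. The first 3 of them entered through the control array alone. The bounds of IKBIP and NKIRAS2 do not reach 1.5-fold and BTRC has no bound, which leaves TBK1.

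**Figure D4:**
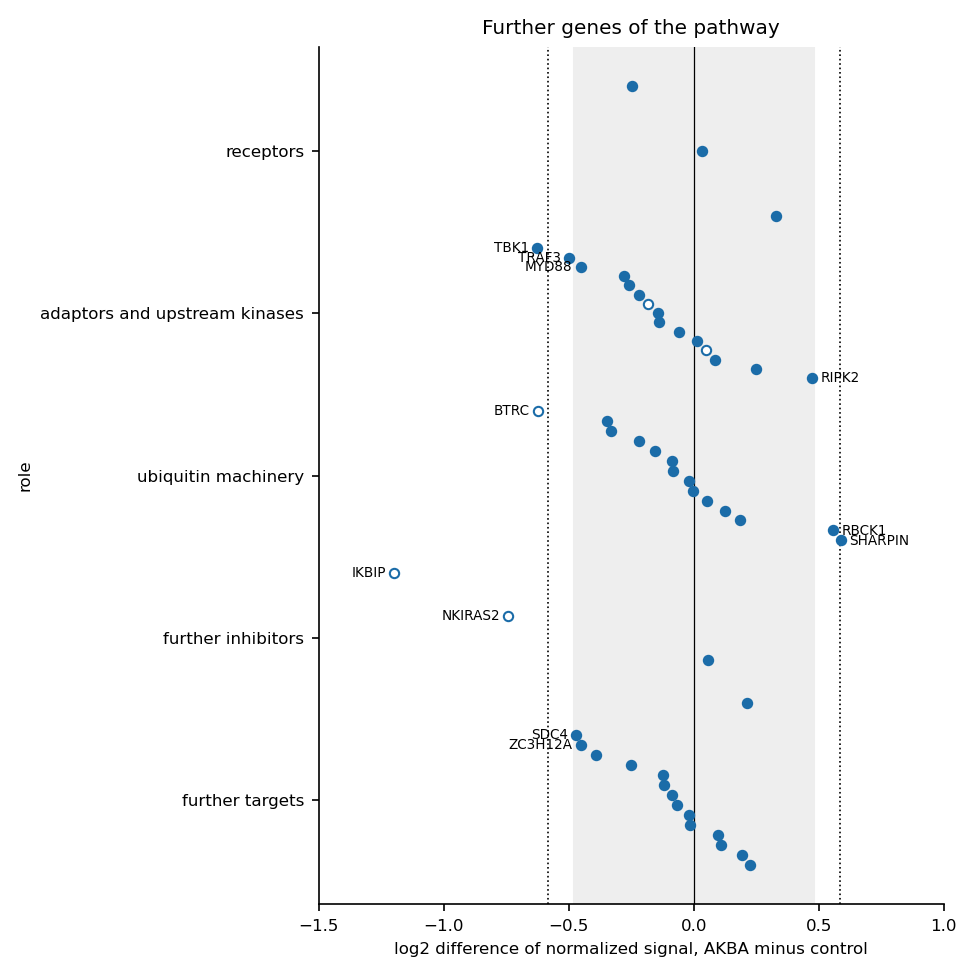
Log2 difference of the normalized signal, AKBA minus control, for the 50 detected further genes of the pathway, by role. Filled points were detected on both arrays and open points on the control array alone; the grey band is the 5th to 95th percentile of all genes detected on both arrays and the dotted lines are 1.5-fold. TBK1 lies beyond the lower line and SHARPIN on the upper one.

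How finely these arrays resolve a gene is shown by its probes. Across the whole array, 1923 further probes of 1677 genes were detected on both arrays, 61.7% of them had a difference of the same sign as the probe that represents the gene, and the absolute deviation from it had a median of 0.20 on the log2 scale. Among the members, 5 genes had 2 probes detected on both arrays, of which NFKBIB, BIRC2, CD83 and SOD2 had both on one side and NFKB2 did not. By every detected probe, the differences of NFKB2, NFKBIA, TNIP1, CD83, SOD2, CHUK, IKBKG and NFKB1 were smaller in size than the deviation of 0.20, and NFKBIB had a probe on either side of it. Those of IKBKB, IRF1, RELA, BIRC2, NFKBIE and BCL3 were larger, and of these BIRC2 was the one with a further detected probe.

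The scaling of the arrays decided the sign of small differences. With the arrays scaled to equal medians the median of all detected genes was -0.32, and with the authors' processed values it was -0.11, so signs were read relative to it. Relative to that median, IKBKB stood between -0.52 and -0.40, IRF1 between -0.50 and -0.37, NFKBIA between -0.17 and -0.14, BIRC2 between 0.42 and 0.50 and RELA between 0.32 and 0.60 under the 11 processings compared. For IKBKB, IRF1, NFKBIA and RELA, the detection rules, the mean over probes and the bound cannot change the difference, only the median it is read against. For BIRC2, of these only the mean over probes can. Apart from the 3 genes without a bound, NFKB2 was the member whose sign turned, from -0.15 to 0.03 with the mean over its probes.

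**Figure D5:**
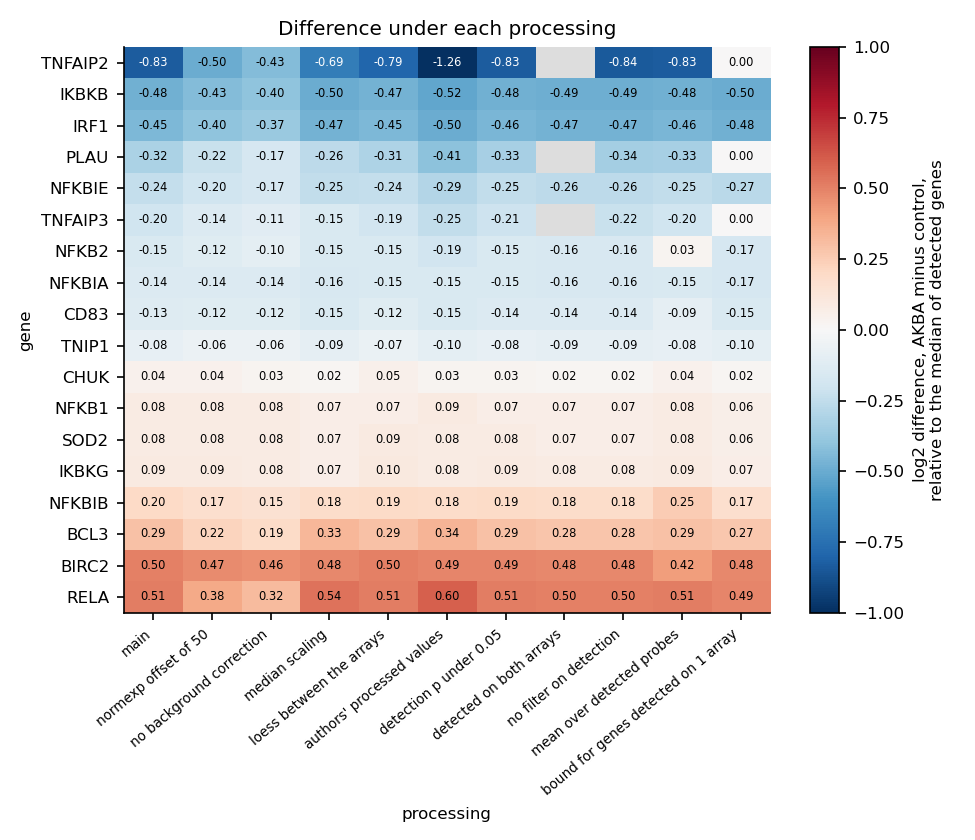
Log2 difference, AKBA minus control, relative to the median of detected genes, for the 18 detected members (vertical axis) under each processing (horizontal axis), from blue (lower with AKBA) to red (higher). Grey cells were not compared, and 0.00 under the bound means that no bound could be given for TNFAIP2, PLAU and TNFAIP3. IKBKB and IRF1 stay at the low side and BIRC2 and RELA at the high side across the columns.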

How the data were processed

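Total RNA was amplified, labelled and hybridised to Illumina bead arrays, 1 per group, per the labels' protocols. Deposited intensity values, a mean bead signal for every probe, were neither background subtracted nor scaled between arrays, as the values show, and each comes with a deposited detection p-value in steps of 759 negative controls. The authors' processed intensity values were linear in these signals, with slopes of 1.00 (control) and 1.20 (AKBA), intercepts of -74.7 and -86.5, medians of 6.50 and 7.63 and a mean of 352 on either array. Which software made them is not stated by the labels or headers.

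Normalization was by neqc of limma 3.58.1 in R 4.3.3 (normexp offset of 16, quantiles, log2). Tables and figures used Python 3.11.15, numpy 2.4.6, pandas 2.3.3 and matplotlib 3.10.9. In the annotation table of the platform, 28098 probes carried 1 gene, 13 carried several and 20692 carried no name, and 28059 probes matched RefSeq (GRCh38.p14) by gene identifier, which gave current symbols. A gene was represented by its probe of highest mean signal after normalization. Genes detected on at least 1 array were counted at 1.5-fold. Alternatives were loess, median scaling, signals without background correction, an offset of 50, the authors' values (floor of 16), other detection rules, the mean over probes, bounds and 2-fold. A bound set the undetected side at the lowest detected value of its array or its own, whichever was higher.

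All members were named by every probe that bears on them. Of the further genes, up to 6 per direction detected on both arrays and 3 with the largest bound were named. The members and lists were chosen with earlier results of these data known. The pipeline was tested on simulated data. With 1 array per group, precision is limited by the number of arrays.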

Additional observations from a re-analysis of the deposited data

How the results depend on the processing

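The count of members lower by 1.5-fold or more, 1 under the processing used, was 0 with a normexp offset of 50, without background correction, with genes detected on both arrays, with genes of 1 array at their bound and at 2-fold. It was 2 (TNFAIP2 and CCL20) at a detection p under 0.05 and without a filter on detection, and 3 (TNFAIP2, IKBKB and IRF1) with the authors' processed values and with median scaling. Taken relative to the median over detected genes, an alternative chosen after seeing the data, it was 1 with both of these. The count of members higher was 0 under the processing used and 1 (RELA) with the authors' values relative to that median. The median of the other targets, -0.32 relative to all detected genes, was 0.00 with genes of 1 array at their bound; the bound by construction takes 2 of these 5 genes to 0. The medians of all members and of the other roles moved by less than 0.20, the deviation between probes of one gene. Of 315 values of single genes under an alternative, 272 moved by less than that deviation, 43 by more, and 0 of those past 1.5-fold changed sign. The genes past 1.5-fold were TNFAIP2, IKBIP, NKIRAS2, TBK1 and SHARPIN. Smaller differences did change sign with median scaling, such as NFKB1 from 0.06 to -0.24 and TANK from 0.25 to -0.07. The 315 include further genes that were named for their large differences. They also include detection rules, probe means and bounds, which cannot move a gene with 1 probe detected on both arrays. These values were not taken relative to the median. Most of the 43 came with median scaling, where the median of all detected genes was -0.32. The median of the cytokine targets has no value, since 0 were detected. No paired analysis was possible because each group holds 1 array. Signals near 138 and 141 set what can be read of RELA, BCL3, TNFAIP3, PLAU and TNFAIP2.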
